A study of Homo sapiens with 2 samples.

Results

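The clustered histone genes described here were the 64 genes of the deposited table whose names start with HIST1H, HIST2H, HIST3H or HIST4H, of 15603 genes listed in all. Names ending in PS, with or without digits after it, mark pseudogenes, and 1 such name was left out. By name, 5 of the 64 were genes of H1, 15 of H2A, 21 of H2B, 12 of H3 and 11 of H4. The table describes 5 of them as pseudogenes although their names do not end in PS (HIST2H2BA, HIST2H2BB, HIST2H2BC, HIST2H2BD and HIST2H3DP1), which leaves 59 coding genes. No gene with a name starting with HIST4H was listed.

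RNA was sequenced from A172, an established human glioblastoma line, and from a resistant derivative of it, in 2 libraries with 1 per group. The parental library was A172 labelled as being without TMZ (temozolomide, an alkylating drug used against glioblastoma). The resistant library, A172R6, came from the cell line A172-r#6, a clone selected by TMZ and labelled as being with TMZ; dose and time are not stated. The line is 1 clone, so clone, selection and drug exposure cannot be told apart, and every difference below lies between these 2 libraries with no replicate check.

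Histones are the proteins around which DNA is wound: pairs of H2A, H2B, H3 and H4 form the core of the nucleosome, and H1 binds the linker DNA between nucleosomes. The clustered genes are read mainly in S phase, when new DNA must be packaged, and their mRNAs end in a short stem-loop in place of a poly(A) tail. SLBP binds that stem-loop, U7 snRNP guides the cut behind it, and NPAT drives transcription of the clusters. A few clustered genes can also give polyadenylated mRNA in cells that have stopped dividing.

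The stem-loop is shown first because it is the feature that sets these mRNAs apart from others. GENCODE release 29 transcripts of 28 of the 59 coding genes, and of the pseudogene HIST2H2BD, hold a match to the histone 3′ stem-loop, searched on the transcript strand. None of the 26 coding genes with 1 GENCODE transcript that stops at the stop codon could hold one, since those models carry no 3′ UTR. HIST1H1E, HIST1H1T, HIST1H4C and HIST1H2BJ have a 3′ UTR in some transcript but held no match, and nor did HIST1H3J. The search used a fixed pattern of letters, so other forms of the stem-loop could be missed. The match began 22 to 67 bases after the stop codon, with a median of 36. Outside the histone genes described here, 9 of 19863 protein-coding genes (0.0453%) held a match anywhere in a transcript, 4 of them with histone names. The 6 forms found in the coding genes are each given below for 1 gene, on the transcript strand (GRCh38), with the 16 bases of the stem and loop in capitals and the bases on either side in lower case.
HIST1H2AE: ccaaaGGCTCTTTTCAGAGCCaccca
HIST1H2BC: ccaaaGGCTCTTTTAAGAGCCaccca
HIST1H3E: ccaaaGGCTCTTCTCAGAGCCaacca
HIST1H2AG: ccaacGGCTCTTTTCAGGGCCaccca
HIST1H4H: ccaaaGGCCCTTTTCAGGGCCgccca
HIST2H4A: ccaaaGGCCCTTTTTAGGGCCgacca
The form printed for HIST1H2AE was the commonest, with 17 genes. The forms printed for HIST1H4H (4 genes) and HIST2H4A (2 genes) were found in H4 genes and in no other class among the 28. In 16 genes even the shortest transcript with a match ran on for more than 100 bases behind it, HIST2H2BE and HIST1H2AG among them.

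The promoters are shown because the classes differ in the motifs they carry. RefSeq's table for GRCh38.p14 held the start site of 54 of the 59 coding genes, and the 250 bases before it were searched on both strands for 4 motifs, none of which contains another. TATAAA, a form of the TATA box, was found in 37 of the 54 (68.5%) and in 10.7% of all 35116 promoters of that table. Either strand and any place in the window counted, so a match need not be the TATA box of that gene. Only these exact letters counted, so other forms of the box were missed. CCAAT, bound by NF-Y, was found in 46 (85.2%, against 32.0%): in each matched gene of H1, H2A, H2B and H3 and in 1 of 9 H4 genes. ATTTGCAT, the octamer bound by OCT1, was found in 22 (40.7%, against 1.63%): in 13 of 17 H2B genes, 9 of 14 H2A genes and none of the others. AAACACA, known from H1 promoters, was found in 5 (9.26%, against 4.82%), which are the 5 H1 genes. One promoter is given for each of H1, H2B, H3 and H4, taken from genes with low folds in their class, with the motifs in capitals. Each is on the strand of its gene, as RefSeq gives it.
HIST1H1B, chr6:27867589-27867838, minus strand: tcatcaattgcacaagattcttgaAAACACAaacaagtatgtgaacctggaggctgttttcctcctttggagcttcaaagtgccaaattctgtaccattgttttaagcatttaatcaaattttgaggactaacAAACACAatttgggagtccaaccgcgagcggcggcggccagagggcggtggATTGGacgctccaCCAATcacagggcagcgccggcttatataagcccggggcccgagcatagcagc
HIST1H2BO, chr6:27893175-27893424, plus strand: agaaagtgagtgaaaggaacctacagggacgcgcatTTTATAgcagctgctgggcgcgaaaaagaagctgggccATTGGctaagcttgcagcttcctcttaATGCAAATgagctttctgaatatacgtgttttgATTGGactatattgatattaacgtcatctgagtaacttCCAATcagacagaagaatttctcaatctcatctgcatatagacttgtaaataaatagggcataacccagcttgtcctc
HIST1H3A, chr6:26020201-26020450, plus strand: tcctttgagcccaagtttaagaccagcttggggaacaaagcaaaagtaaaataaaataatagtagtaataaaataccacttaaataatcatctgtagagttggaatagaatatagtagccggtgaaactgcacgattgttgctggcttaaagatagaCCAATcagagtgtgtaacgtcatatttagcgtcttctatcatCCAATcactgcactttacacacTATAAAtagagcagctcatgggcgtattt
HIST1H4D, chr6:26189113-26189362, minus strand: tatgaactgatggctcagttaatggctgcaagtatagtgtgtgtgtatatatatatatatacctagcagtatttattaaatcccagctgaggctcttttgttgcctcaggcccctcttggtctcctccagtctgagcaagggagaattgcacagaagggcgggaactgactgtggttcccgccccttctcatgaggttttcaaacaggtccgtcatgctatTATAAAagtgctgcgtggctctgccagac
The HIST1H2BO stretch overlaps the one in front of HIST1H2AM, which is read the other way. Its only TATAAA match lies on the opposite strand, near the HIST1H2AM start, and is also the match counted for HIST1H2AM. These matches are letters in a window and were not tested as binding sites.

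Expression is given in FPKM, the unit of the table (fragment numbers divided by transcript length and scaled between libraries), which allows levels of different genes to be set side by side within a library. The fold of a gene is log2 of resistant FPKM + 1 over parental FPKM + 1, so a negative value means lower in the resistant library. A gene was tested when it had at least 1 FPKM in either library. It was called when the difference was at least 2-fold in either direction, which is a log2 fold of at least 1 or at most -1.

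Most histone genes had a lower value in the resistant library, but by less than 2-fold. All 64 were above 0 in both libraries, and 63 were tested (HIST2H2BB, at 0.999 and 0.901 FPKM, was not). Of these, 1 was called lower, the pseudogene HIST2H2BA, which fell from 3.43 to 0.879 FPKM (log2 fold -1.24), and 0 were called higher. Among all 13937 tested genes, 3.82% were called lower and 4.59% higher, so the called share of the histone genes was not above the background. The fold was below 0 in 41 of 63 (65.1%), against 46.7% of all tested genes, and the median was -0.35, against 0.04. At a threshold of 1.5-fold, 15 of 63 (23.8%) were lower and 2 (3.17%) higher, against 12.0% and 14.5% of all tested genes. By the plain FPKM ratio, 3 of 63 were at least 2-fold lower (HIST2H2BA, HIST2H2BD and HIST1H3A) and 2 at least 2-fold higher (HIST1H1T and HIST2H3DP1). Among the 13852 tested genes above 0 in both libraries, 7.40% were lower and 8.07% higher by that ratio. The 59 coding genes alone had the same median, with 38 (64.4%) below 0 and none called. In bulk RNA, fewer cells in S phase and less histone RNA per cell cannot be told apart.

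**Figure D1:**
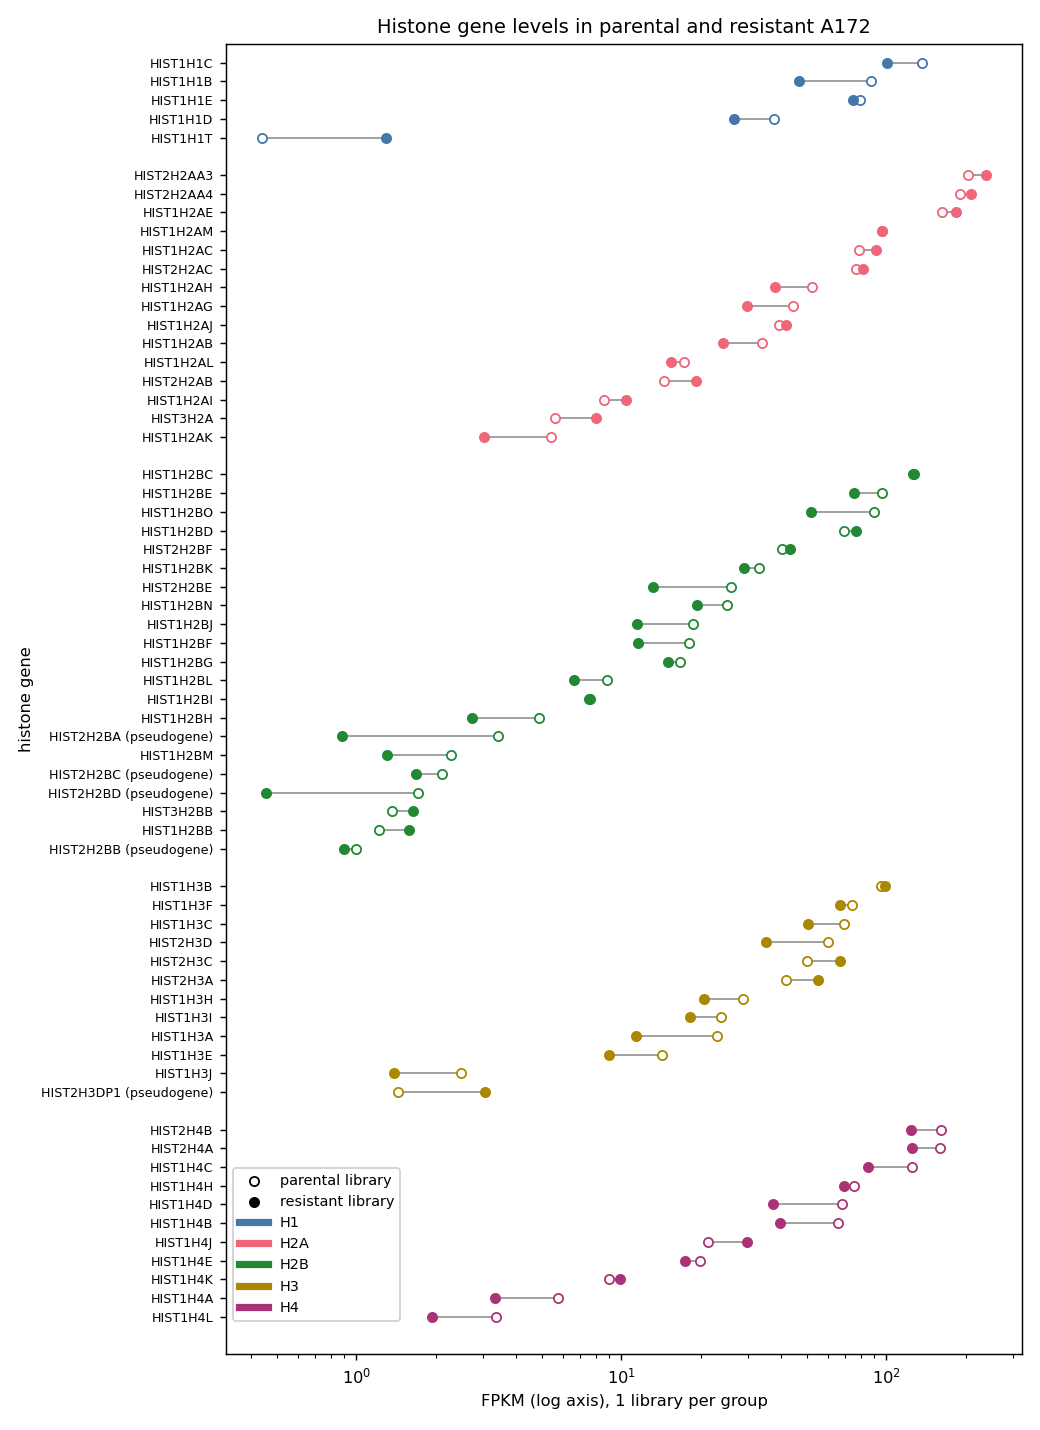
FPKM of each of the 64 histone genes (log axis) in the parental (open circles) and resistant (filled circles) library, grouped by class and ordered by parental level, with a grey line joining the values of a gene. Levels range from below 1 to 238 FPKM, and the open circle lies to the right of the filled one for most genes outside H2A.

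In the authors' deposited table, 9.11% of all listed genes had a q-value under 0.05, and none of the histone genes did. The lowest q-value among them in the authors' deposited table was 0.192, for HIST2H2BA, followed by 0.239 for HIST1H1B and 0.241 for HIST2H2BE. How that table's test treated single libraries is not stated.

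H1, the linker histone, had 4 of 5 genes with a fold below 0 and a median of -0.42. HIST1H1B (ENSG00000184357, chr6:27866849-27867529, encoding H1.5) was at 87.8 FPKM in parental cells and 46.9 in resistant cells, a log2 fold of -0.89 that stayed just inside the 2-fold limit. HIST1H1C, encoding H1.2 and the most abundant H1 gene in both, was at 136 and 101 FPKM (-0.42), and HIST1H1D, encoding H1.3, at 37.5 and 26.6 FPKM (-0.48). HIST1H1E, encoding H1.4, was nearly level at 79.4 and 74.8 FPKM (-0.08). The makeup of H1 RNA therefore differed: HIST1H1B made up 25.7% of the H1 sum in parental cells and 18.7% in resistant cells, and HIST1H1E 23.3% and 29.9%. The testis-type gene HIST1H1T was the only H1 gene with the opposite sign, at 0.442 and 1.29 FPKM (0.67), both low levels.

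In H2A, 10 of 15 genes had a fold above 0, and the median was 0.09, where each of the other classes had a median below 0. That median was -0.013 when the libraries were scaled to the same sum outside the 5 most abundant genes, so its direction depends on the scaling. The 3 most abundant histone genes of both libraries were H2A genes. HIST2H2AA3 was at 202 FPKM in parental cells and 238 in resistant cells (0.23), and HIST2H2AA4 at 189 and 208 FPKM (0.13). These copies have identical coding sequences, so how reads were split between them cannot be seen. HIST1H2AE followed at 163 and 183 FPKM (0.17). Close to level were HIST1H2AM at 96.1 and 96.5 FPKM (0.01), HIST2H2AC at 76.7 and 81.8 FPKM (0.09) and HIST1H2AJ at 39.3 and 41.7 FPKM (0.08). Of these, HIST1H2AM overlaps exons of HIST1H3J on the same strand. HIST1H2AC was at 78.8 and 91.2 FPKM (0.21). The highest folds of the class were those of HIST3H2A, at 5.63 and 8.01 FPKM (0.44), and HIST2H2AB, at 14.5 and 19.1 FPKM (0.37), which overlaps exons of BOLA1. Lower in the resistant library, each by less than 2-fold, were 5 genes of HIST1. HIST1H2AG was at 44.3 and 29.7 FPKM (-0.56), HIST1H2AH at 52.6 and 37.99 FPKM (-0.46), and HIST1H2AB at 33.9 and 24.2 FPKM (-0.47). HIST1H2AK, at 5.42 and 3.03 FPKM (-0.67), and HIST1H2AL, at 17.2 and 15.4 FPKM (-0.15), overlap exons of HIST1H2BN. Strand use in the counting is not stated, so reads of such overlapping genes cannot be told apart.

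H2B had 15 of 20 tested genes below 0 and a median of -0.36, or 12 of 17 and -0.35 without the pseudogenes. The lowest coding gene was HIST2H2BE, which was at 25.9 FPKM in parental cells and 13.2 in resistant cells (-0.92). HIST1H2BO, one of the more abundant H2B genes, was at 89.96 and 51.7 FPKM (-0.79). Its share of the H2B sum was 15.2% in parental cells and 10.4% in resistant cells. HIST1H2BH, at 4.90 and 2.72 FPKM (-0.67), HIST1H2BJ, at 18.6 and 11.4 FPKM (-0.66), and HIST1H2BF, at 18.0 and 11.6 FPKM (-0.59), were the other coding genes lower by at least 1.5-fold. In contrast, HIST1H2BC, the most abundant H2B gene, was level at 126 and 128 FPKM (0.02), and its share was 21.2% and 25.5%. HIST1H2BD was at 69.0 and 77.1 FPKM (0.16) and HIST2H2BF at 40.4 and 43.3 FPKM (0.10). HIST1H2BE, at 96.4 and 75.3 FPKM, and HIST1H2BN, at 25.1 and 19.4 FPKM, lay near the class median. The 13 H2B genes with the octamer in their promoter had a median of -0.35 and the 4 without it -0.10. Those 4 were split, with HIST1H2BD and HIST3H2BB at 0.16 and HIST1H2BL and HIST1H2BN at -0.36. In H2A the medians were 0.08 with the octamer and 0.23 without it. Over the 54 matched genes of all classes the order was the other way, with -0.14 and -0.26. Of the pseudogenes, HIST2H2BD was at 1.70 and 0.455 FPKM (-0.89), and HIST2H2BC at 2.10 and 1.68 FPKM.

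H3 genes of HIST1 encode H3.1 and those of HIST2 encode H3.2. The class had a median of -0.41, with 8 of 12 genes below 0, and without the pseudogene -0.44. HIST1H3A (chr6:26020490-26020900) had the lowest fold of all coding histone genes, from 22.9 FPKM in the parental to 11.3 in the resistant library (-0.96). Its plain FPKM ratio was past 2-fold and the pseudocount kept it just under the limit. HIST1H3E, at 14.3 and 9.004 FPKM (-0.61), HIST1H3J, at 2.48 and 1.38 FPKM (-0.54), HIST1H3H, at 28.8 and 20.5 FPKM (-0.47), and HIST1H3C, at 69.0 and 50.6 FPKM (-0.44), were also lower. The most abundant H3 gene, HIST1H3B, was level at 95.4 and 99.1 FPKM (0.05). Summed over 8 genes, H3.1 RNA was at 331 and 277 FPKM, a log2 ratio of -0.26. For H3.2, the sum over 3 genes was 152 and 158 FPKM (0.05), but its genes differed in sign. HIST2H3A was at 41.9 and 55.3 FPKM (0.39) and HIST2H3C, with the identical coding sequence, at 50.1 and 67.0 FPKM (0.41). HIST2H3D, whose coding sequence is 97.1% identical to theirs, was at 60.1 and 35.2 FPKM (-0.76). The pseudogene HIST2H3DP1 had the highest fold of all histone genes, from 1.44 to 3.06 FPKM (0.73).

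H4 had the largest share of genes below 0 among the core histones, 9 of 11, and a median of -0.37. Within HIST1, HIST1H4D (chr6:26188765-26189076) was at 68.2 FPKM in parental cells and 37.5 in resistant cells (-0.85). HIST1H4B was at 65.7 and 39.6 FPKM (-0.72) and HIST1H4C, the most abundant H4 gene of HIST1, at 126 and 85.6 FPKM (-0.55). HIST1H4A, at 5.78 and 3.34 FPKM (-0.64), and HIST1H4L, at 3.37 and 1.93 FPKM (-0.58), were low in both. HIST1H4H, at 75.4 and 69.4 FPKM (-0.12), and HIST1H4E, at 19.8 and 17.4 FPKM (-0.17), were closer to level. The 2 genes above 0 were HIST1H4J, at 21.3 and 29.7 FPKM (0.46), and HIST1H4K, at 8.98 and 9.91 FPKM (0.13), whose coding sequences are identical. The identical copies HIST2H4A, at 159 and 125 FPKM (-0.35), and HIST2H4B, at 160 and 124 FPKM (-0.37), were the most abundant H4 genes. Each overlaps exons of HIST2H3C or HIST2H3A on the opposite strand, which had folds of the opposite sign. Without the genes that overlap another listed gene, the H4 median was -0.55.

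**Figure D2:**
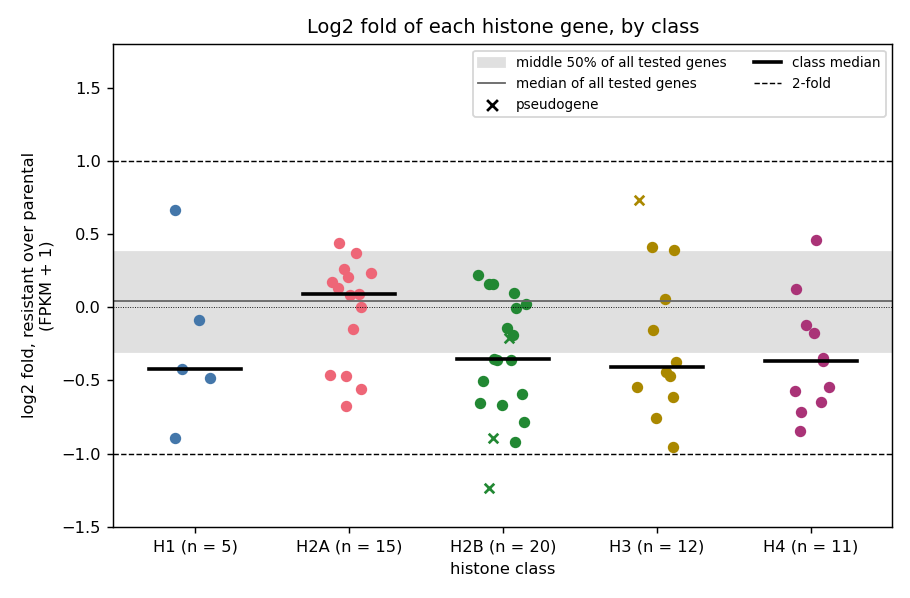
Log2 fold of each tested histone gene (points; crosses are pseudogenes) by class, with the class median (black bar), the middle 50% of all tested genes (grey band) and the 2-fold limits (dashed). The medians of H1, H2B, H3 and H4 lie between -0.42 and -0.36, below the grey band, and that of H2A lies at 0.09.

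Summed over each class, the difference was largest for H1 and H4. The H1 sum was 341 FPKM in parental cells and 251 in resistant cells (log2 ratio -0.44), and the H4 sum 713 and 543 FPKM (-0.39). For H2B the sums were 593 and 500 FPKM (-0.25) and for H3 485 and 437 FPKM (-0.15). H2A was the most abundant class and was near level, at 1027 and 1088 FPKM (0.08; -0.023 under the scaling to the same sum outside the 5 most abundant genes). H2A therefore made up 32.5% of all histone FPKM in parental cells and 38.6% in resistant cells, while H4 made up 22.6% and 19.3% and H1 10.8% and 8.89%. All 64 genes together summed to 3159 and 2819 FPKM, which was 1.05% and 0.87% of the whole table. Removing the most abundant gene of each class left the H2A ratio at 0.04, the H2B ratio at -0.33, the H3 ratio at -0.20 and the H4 ratio at -0.40. The order of levels among the coding genes was much the same in both libraries, with a Spearman rho of 0.97 across 59 genes, which are not independent replicates.

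**Figure D3:**
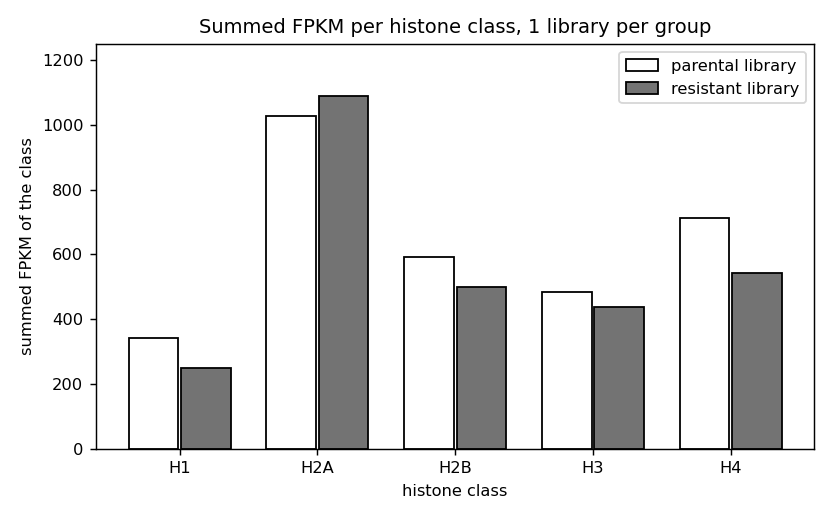
Summed FPKM of the genes of each histone class in the parental (white bars) and resistant (grey bars) library, 1 library each. The grey bar is shorter for H1, H2B, H3 and H4 and slightly taller for H2A.

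The coding genes lie in 3 clusters: 46 in HIST1 (chr6:26020490-27893843), 11 in HIST2 (chr1:149782689-149887916) and 2 in HIST3 (chr1:228456979-228460470). In HIST1, 34 of 46 genes (73.9%) had a fold below 0, with a median of -0.37. In HIST2, 4 of 11 were below 0, with a median of 0.10, and both HIST3 genes were above 0. The clusters hold different numbers of each class, and within single classes the medians also differed. The H2A genes had a median of -0.07 in HIST1 (10 genes) and 0.18 in HIST2 (4 genes, all above 0), and the H3 genes -0.46 (8 genes) and 0.39 (3 genes). H2B genes had medians of -0.36 (14 genes) and -0.41 (2 genes). No test of these differences was possible, since members of a cluster are not replicates.

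Along chromosome 6, genes below 0 were found on both sides of the widest gap in HIST1, which spans 840259 bases. The 26 genes of the first block had a median of -0.26, with 19 below 0, and the 20 of the second block -0.42, with 15 below 0. Neighbours had the same sign in 27 of 45 cases. With 34 of the 46 genes below 0, most neighbours would share a sign in any order, so nothing is read from this count. Genes above 0 stood singly or in short runs, such as HIST1H4J beside HIST1H4K.

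**Figure D4:**
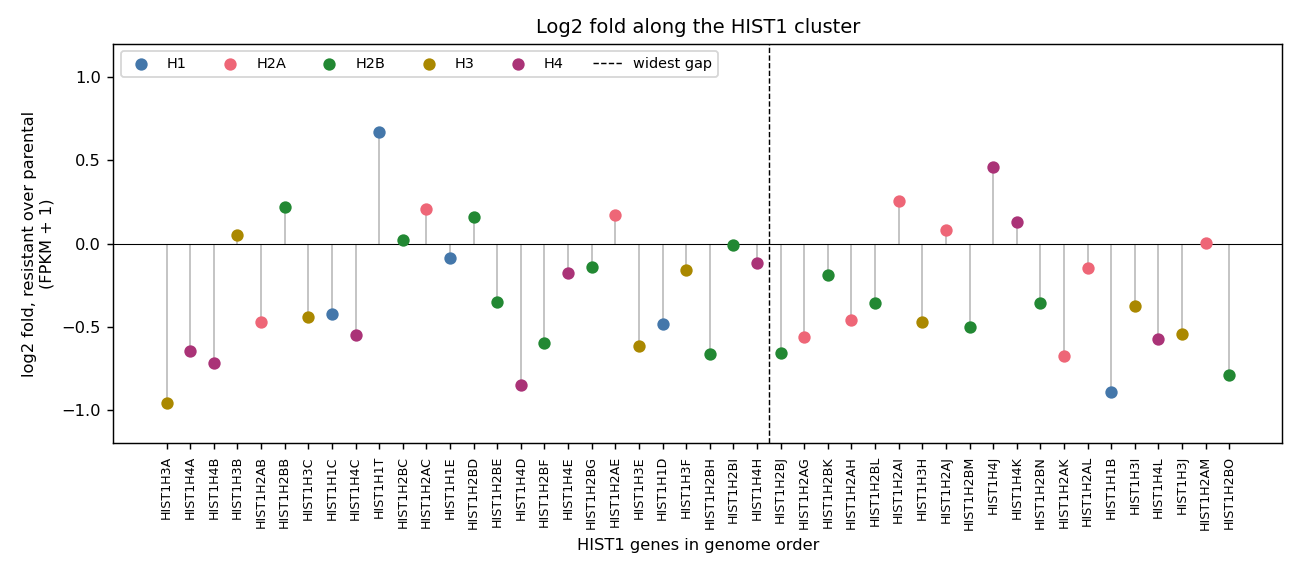
Log2 fold of the 46 HIST1 genes in genome order, coloured by class, with the widest gap between neighbours dashed. Points below 0 are spread over both blocks, and the lowest is HIST1H3A at the left end (-0.96).

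Many H2A and H2B genes face away from each other across a shared promoter region. By GENCODE gene starts, 9 such pairs had both genes listed, with start sites 219 to 331 bases apart. HIST1H2AK (-0.67) and HIST1H2BN (-0.36) also face away from each other by their RefSeq starts. They are not among the 9, because the GENCODE start of HIST1H2BN is that of a longer model, and there the H2A gene had the lower fold. The H2A gene had the higher fold in 8 of the 9 pairs, and the median difference was 0.31. In 5 pairs the H2A gene was above 0 and the H2B gene below. The widest difference was 1.02, between HIST2H2AC (0.09) and HIST2H2BE (-0.92). HIST1H2AM (0.01), which overlaps exons of HIST1H3J, and HIST1H2BO (-0.79) differed by 0.79. The region shared by HIST1H2AM and HIST1H2BO is printed above. HIST1H2AI, at 8.56 and 10.4 FPKM (0.26), and HIST1H2BL, at 8.80 and 6.64 FPKM (-0.36), differed by 0.62, and HIST1H2AJ (0.08) and HIST1H2BM, at 2.27 and 1.31 FPKM (-0.50), by 0.58. HIST1H2AG and HIST1H2BJ were both below 0 and differed by 0.09. The exception among the 9 was HIST1H2AH (-0.46), which lay below its partner HIST1H2BK, at 33.1 and 28.9 FPKM (-0.19).

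**Figure D5:**
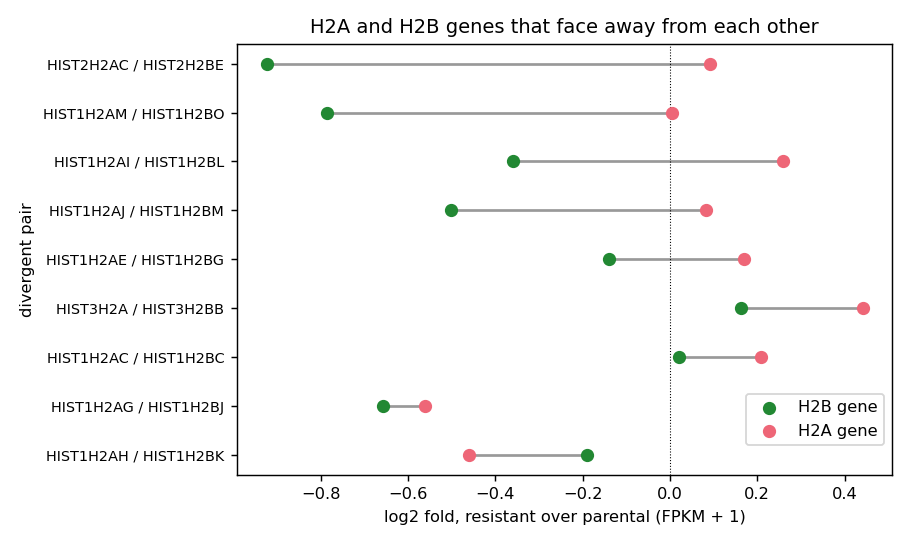
Log2 fold of the H2A gene (pink) and the H2B gene (green) of each of the 9 divergent pairs found by GENCODE gene starts, ordered by the size of the difference, with a grey line joining the partners. The pink point lies to the right in each pair but HIST1H2AH and HIST1H2BK.

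Polyadenylation matters here because the library kit is one for mRNA; how it selects RNA is not stated in the labels. Of 9 clustered genes marked as known to give polyadenylated mRNA, 8 were listed. They had a median of -0.08, with 4 of 8 below 0, and the 51 other coding genes -0.35, with 34 below 0. Within H2B the same split gave -0.08 (6 genes) and -0.36 (11 genes). The marked genes were not alike: HIST1H2BC, HIST1H2AC, HIST1H2BD and HIST2H2BF were above 0, while HIST2H2BE had the lowest fold of all coding H2B genes and HIST1H2BJ was at -0.66. Marking genes by annotation (a transcript with several exons or a 3′ UTR over 200 bases) gave the opposite order, with -0.35 for 23 genes and -0.27 for 36. By stem-loop form, the 17 genes with the form printed for HIST1H2AE had a median of 0.13, the 3 with that of HIST1H2BC 0.02, the 4 H4 genes with that of HIST1H4H -0.15 and the 2 with that of HIST2H4A -0.36. The forms of HIST1H3E (-0.61) and HIST1H2AG (-0.56) were found in 1 gene each. The form of the gene model is another property the folds moved with. The 26 genes with coding-only models (1 transcript, no 3′ UTR) had a median of -0.43, with 19 below 0. The 33 other coding genes had a median of -0.14, with 19 below 0. Each of these has a 3′ UTR in some transcript except HIST1H3J, which has 2 transcripts. FPKM divides by model length, so levels of these groups are not fully comparable, and the part of either property in the folds was not tested.

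Of 15 RNAs outside the histones that also lack a poly(A) tail, 5 had a fold below 0, and the median was 0.22. By call, 3 of 15 were lower and 1 higher, against 3.82% and 4.59% of all tested genes. RMRP, the RNA of RNase MRP, was called higher, from 63.1 to 315 FPKM (2.30), and TERC, the telomerase RNA, was called lower, from 4.11 to 1.31 FPKM (-1.15). SCARNA2, which guides modification of spliceosomal RNA, and RNU1-1, a U1 RNA with near-identical copies, had parental values of 2.28 and 1.67 FPKM and were listed at 0 for the resistant clone. Both count among the 3 called lower, by folds that depend on the pseudocount.

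Of 24 genes that make and process histone mRNA, 0 were called lower and 0 higher, with a median of 0.05. With 3.82% of all tested genes called lower and 4.59% higher, lists of this size hold few calls at the background share, and nothing is read from the count of 0. SLBP was at 15.05 FPKM in parental cells and 15.9 in resistant cells (0.07), and NPAT at 4.65 and 4.97 FPKM (0.08). The widest folds were those of NELFE, a subunit of the elongation factor NELF, at 15.4 and 23.9 FPKM (0.60), and CDK2, the kinase that phosphorylates NPAT, at 25.7 and 16.6 FPKM (-0.60). GON4L was at 34.5 and 23.9 FPKM (-0.51), and the cyclin gene CCNE2 at 4.203 and 2.72 FPKM (-0.48). Of 18 genes of histone mRNA decay, 0 were called in either direction, with a median of 0.06, and the same background holds. EXOSC4, an exosome subunit, was at 9.88 and 18.3 FPKM (0.83), LSM5 of the LSM ring at 16.4 and 29.7 FPKM (0.82), and LSM7 at 8.02 and 13.0 FPKM (0.64). XRN1, the 5′ to 3′ exonuclease, was at 22.1 and 13.6 FPKM (-0.66).

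Of 30 histone chaperones and supply factors, 1 was called lower and 1 higher, with a median of -0.09. That is close to the 3.82% lower and 4.59% higher among all tested genes. ASF1B, which hands new H3 and H4 to the replication fork, fell from 14.7 to 6.32 FPKM (-1.10). DEK, a chromatin protein and H3.3 chaperone, rose from 9.97 to 25.9 FPKM (1.29). The importin IPO4, at 7.65 and 13.4 FPKM (0.73), and SET, at 156 and 256 FPKM (0.71), did not reach 2-fold. Among 9 replacement histones outside the clusters, 1 was called lower (3.82% of all tested genes were) and the median was -0.21. H3F3A, encoding H3.3, fell from 235 to 101 FPKM (-1.21), while H3F3B, encoding the same protein, was at 174 and 258 FPKM (0.57). H2AFV, encoding H2A.Z.2, was at 90.9 and 58.9 FPKM (-0.62), and H2AFY2, encoding macroH2A.2, at 1.999 and 2.997 FPKM (0.41).

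The genes of G1/S and DNA replication, read in the same phase as the clustered histones, had a similar median. Of 48 tested, 39 had a fold below 0, against 46.7% of all tested genes, and 9 had a fold above 0, up to 0.73. The median was -0.35. In either direction 0 were called, against 3.82% lower and 4.59% higher among all tested genes, and nothing is read from that count. The genes with the largest folds of the list, all lower, are named here. PCNA, the sliding clamp of replication, was at 66.5 and 33.8 FPKM (-0.96), and POLD1, a subunit of DNA polymerase delta, at 12.3 and 6.30 FPKM (-0.86). MCM10 was at 4.16 and 1.76 FPKM (-0.90) and CLSPN at 7.36 and 3.56 FPKM (-0.88). Among genes of G2/M and mitosis, 16 of 20 were below 0 and 4 above 0, up to 0.56, with a median of -0.32. Here too 0 were called, and the same background holds. The named genes again have the largest folds of the list. MKI67, a marker of cycling cells, was at 10.6 and 4.85 FPKM (-0.99), KIF20A at 19.2 and 9.47 FPKM (-0.94), PRC1 at 50.4 and 25.8 FPKM (-0.94) and NUSAP1 at 33.2 and 18.2 FPKM (-0.83). The medians of both lists lay near that of all histone genes (-0.35), while the H2A median was 0.09. The part of these genes in the histone folds was not tested.

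Over the whole table, the summed FPKM was 299594 (median 6.84) for parental and 323932 (median 7.14) for resistant cells, and sequencing depth is unknown. The labelled cell type was checked against markers: VIM (632 and 804 FPKM) and CD44 (83.1 and 161 FPKM) were high in both libraries. NES fell from 33.7 to 5.08 FPKM and SOX2 from 2.23 to 0.253 FPKM, OLIG2 was at 1.43 and 3.42 FPKM, and no value was used here for GFAP and S100B. Of the cycling markers, TOP2A (41.1 and 35.6 FPKM) and CCNB1 (47.5 and 45.2 FPKM) were closer to level than MKI67 and PCNA. Of 7 markers of epithelial, immune and endothelial cells, 5 were listed (EPCAM, PTPRC, CD68, PECAM1 and CDH5), each below 2 FPKM in both.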

How the data were processed

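RNA was taken up in Trizol and libraries were made with a stranded mRNA kit, per the labels' protocols. The deposited table gives FPKM per gene and library, with the authors' log2 ratio and their p-values and q-values, per the file headers. For their test, the FPKM scaling, aligner, counting, annotation and build, nothing was given in the sources used here. Their log2 column was not used. No fragment counts were used, so depth is unknown and no counting interval is given.

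Genes with 1 FPKM or more in either library were tested, with log2 of (FPKM + 1) and a call at 2-fold. No p-value was computed, because each group held 1 library. Deposited loci of the histone genes started at the GENCODE 29 (GRCh38) gene start in 52 of 63 cases and contained the gene in 62, so positions from that release are given. Python 3.11.15, pandas 2.3.3, scipy 1.17.1 and matplotlib 3.10.9 were used.

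The histone genes and all lists (synthesis and processing, decay, chaperones, replacement histones, G1/S, G2/M, RNAs without poly(A) tails, cell type markers, polyadenylated marks) were chosen with earlier results of these data known. Any histone gene may be named; of each other list, the called genes and up to 4 with the largest folds, with SLBP, NPAT, PCNA and MKI67 always. Other pseudocounts, filters, thresholds, scalings and subsets were tried.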

Additional observations from a re-analysis of the deposited data

How the results depend on the processing

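Of 201 values recomputed under other settings, 167 kept their size, within 0.1 for a median or log2 ratio and within 1.5 times for a count. That number was partly set in advance. Scaling to the same upper quartile or median shifts the resistant values by -0.079 or -0.063 (log2). Medians and log2 ratios could therefore not move by more than 0.1 under these scalings. The number of histone genes called lower, 1 as reported, was 3 with a pseudocount of 0.1 or the plain FPKM ratio, 0 with a pseudocount of 5, 0 with a filter of 5 FPKM, 15 at 1.5-fold, 2 when scaled to the same upper quartile or median, 3 when scaled to the same sum outside the 5 most abundant genes, and 0 without the pseudogenes. The number called higher, 0 as reported, was 2 with the pseudocount of 0.1, the plain ratio or 1.5-fold. With the pseudocount of 5 the medians were -0.20 over all histone genes, -0.23 for H2B, -0.27 for H3, -0.23 for genes not marked polyadenylated and -0.23 for G1/S. The scaling to the same sum lowers each resistant value by 0.11 (log2), and it gave medians of -0.45 over all histone genes, -0.53 for H1, -0.013 for H2A (reversed in sign), -0.51 for H3, -0.47 for H4, -0.19 for marked and -0.45 for unmarked genes, -0.31 for replacement histones, -0.42 for G2/M and 0.11 for RNAs without a poly(A) tail. The class sums then had log2 ratios of -0.55 for H1, -0.023 for H2A (also reversed), -0.35 for H2B, -0.25 for H3 and -0.50 for H4. Marks taken from the annotation gave -0.35 for marked genes, and H4 without overlapping genes gave -0.55. The subsets without pseudogenes and without overlapping genes, the settings for pairs and lists, and the scalings of the class sums were chosen after seeing the data. Among the divergent pairs by GENCODE gene starts, those with the higher fold in H2A numbered 8 under each pseudocount and scaling tried. Without the genes that overlap another listed gene, which takes out the pair of HIST1H2AM, they numbered 7. A scaling moves both genes of a pair nearly alike and could hardly change the number, so nothing is read from its stability. No paired analysis was possible because each group held 1 library. Unknown depth leaves the counting error of the genes below 5 FPKM unknown.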
